A study of Mus musculus with 4 samples.

Results

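The 45 genes described here encode the machinery that licenses and copies DNA and the regulators that move a cell from G1 into S phase. They were chosen by symbol, and each symbol matched a single identifier among the 55471 Ensembl genes of the deposited count table through GENCODE M21 on GRCm38. All 45 had at least 1 count, and 42 passed the filter on low counts. In every library 38 of them, or 84.4%, reached 1 CPM, a count scaled to the size of its library, against 53.6% of 21974 protein-coding genes.

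The study holds 4 poly(A) RNA-seq libraries in a single group, numbered 1 to 4 in the labels. The cells were CD11b-positive brain cells, selected with magnetic beads from mice aged 10 to 13 weeks. Every mouse had 7 days of PLX5622, an inhibitor of the CSF1 receptor on which microglia depend, followed by 10 days without it, which makes up the 17 days given as the time point. No untreated, depleted or earlier group was analysed here, so levels are described and no effect of the drug or of its withdrawal is estimated. The sources used here do not give strain or sex, nor whether each library is a separate animal. P-values therefore cover variation among these 4 libraries alone, and part of it may be technical. Cells that returned and cells that survived the drug cannot be told apart, and CD11b also selects other myeloid cells.

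The libraries held 23036202 to 24487418 counts, and a floor of 3 counts corresponded to 0.119 to 0.132 CPM. All 11 microglia markers were above 1 CPM in every library, with a summed level of 32703 to 40651 CPM. Itgam, which encodes CD11b, had 531 ± 75.6 CPM (SD, n = 4). Markers of other cells were present and uneven. The summed choroid plexus and ependyma level ran from 3339 CPM in library 3 to 22373 CPM in library 4, and that of border-associated macrophages from 266 CPM in library 4 to 668 CPM in library 1. Endothelial markers summed to 211 CPM in library 3 and 779 to 913 CPM in the others. In bulk RNA, fewer cells of a type and less RNA per cell cannot be told apart.

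DNA replication starts from origins that are licensed in G1. The origin recognition complex (ORC) binds DNA, and Cdc6 and Cdt1 then load the MCM2-7 helicase onto it. In S phase Cdc45 and the GINS complex activate that helicase, polymerases copy the strands, and the clamp PCNA keeps them on the template. Cyclin D and cyclin E with their kinases release E2F transcription factors from RB proteins, and E2F raises the transcription of many of these genes. Several subunits are made mainly in cycling cells, while others persist in resting cells. After depletion, microglia are known to return by division of remaining cells.

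Promoters of these genes are known targets of E2F, so they were searched for its recognition letters. The search covered TTTCCCGC, TTTCGCGC, TTTGCCGC and TTTGGCGC on both strands, in the 300 bases from 250 before to 50 after each RefSeq start (GRCm38.p6). RefSeq entries were found for 36 of the 45 genes, with 44 promoters in all. The letters stood in 14 of these 44 promoters (31.8%), in 14 genes, against 744 of 32851 promoters (2.26%) in the whole table. CCAAT, the box bound by NF-Y, stood in 25 of the 44 (56.8%) against 37.4% of all promoters. A match is a description of the letters and not a site of binding.

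The stretches below end at the base before the start and are printed 5′ to 3′ on the strand of the gene, with the E2F letters in capitals. They are shown because each of these 5 genes carries at least 1 of the 4 strings and their levels are far apart. Matches may overlap: in Mcm6 and in Mcm5 the first 12 capitals hold 2 matches, 1 on each strand. The stretches lie on GRCm38.p6 at chr1:128359706-128359825 (minus strand) for Mcm6, chr8:75109349-75109508 (plus) for Mcm5, chr11:98908006-98908150 (plus) for Cdc6, chr4:108579394-108579453 (plus) for Orc1 and chr4:34614943-34615002 (minus) for Orc3.
Mcm6: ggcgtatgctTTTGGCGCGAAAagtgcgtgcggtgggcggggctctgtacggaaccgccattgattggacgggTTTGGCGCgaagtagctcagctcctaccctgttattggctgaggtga
Mcm5: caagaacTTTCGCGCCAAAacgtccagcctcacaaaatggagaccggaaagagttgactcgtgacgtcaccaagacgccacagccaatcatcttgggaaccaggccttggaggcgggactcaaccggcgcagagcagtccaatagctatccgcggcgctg
Cdc6: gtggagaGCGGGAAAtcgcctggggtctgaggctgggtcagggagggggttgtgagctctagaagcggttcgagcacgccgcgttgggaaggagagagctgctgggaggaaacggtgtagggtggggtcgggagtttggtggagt
Orc1: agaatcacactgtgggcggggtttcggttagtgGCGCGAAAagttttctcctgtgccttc
Orc3: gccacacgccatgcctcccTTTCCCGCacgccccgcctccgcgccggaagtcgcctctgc

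Members with and without the letters covered nearly the same range of levels. Levels are compared between genes as CPM per kilobase of exonic length, the union of all exons of the gene. Over the 14 members with the letters this level ran from 0.0181 (Orc1) to 13.4 (Mcm3) with a median of 2.94. Over the 22 matched members without them it ran from 0.0782 (Mcm10) to 16.1 (Pcna) with a median of 2.23. Orc1 and Orc3 each carry 1 match, of different letters, and Orc3 was at 6.93 CPM per kilobase and Orc1 under the floor.

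The 6 subunits of ORC, the complex that marks origins, were expressed unevenly. Orc1, the subunit that is made anew in each cell cycle in many cells, had 2, 1, 2 and 1 counts in libraries 1 to 4, under the floor of 3 counts in each. The other 5 subunits were detected in every library. Orc4 had 64.2, 54.99, 57.6 and 54.1 CPM, Orc3 had 47.9, 40.6, 40.7 and 39.6 CPM, and Orc2 had 33.0, 32.2, 31.3 and 30.9 CPM in libraries 1 to 4. Orc2 thus stayed within 1.07-fold across the libraries, and each of these subunits was highest in library 1.

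Orc5 had 32.4, 19.4, 22.9 and 24.2 CPM, and Orc6, the smallest and most loosely bound subunit, had 10.6, 8.34, 7.84 and 7.66 CPM. Per kilobase the order was Orc2 at 8.26, Orc4 at 7.74, Orc3 at 6.93, Orc5 at 4.01 and Orc6 at 3.49. Orc2 and Orc4 did not differ beyond the libraries (1.07-fold, 0.994 to 1.13), nor did Orc5 and Orc6 (1.14-fold, 0.932 to 1.27). With the length of the longest transcript in place of all exonic bases, Orc2 lay below Orc3 and Orc4 in all 4 libraries, so the place of Orc2 depends on the length used.

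The 2 loaders of the helicase lay far apart. Cdt1, which carries MCM2-7 to ORC, had 7.47, 10.2, 9.55 and 8.22 CPM in libraries 1 to 4. Cdc6, the ATPase that joins ORC for the loading, had 16, 9, 5 and 13 counts, or 0.653, 0.389, 0.220 and 0.516 CPM. Per kilobase Cdt1 was 35.5-fold above Cdc6 (19.0 to 72.3 over the libraries). Cdc6 varied by 41.5% between libraries (coefficient of variation), against 30.5% from counting alone. Geminin (Gmnn), the protein that holds Cdt1 inactive after the start of S phase, had 3.95 ± 1.21 CPM (SD, n = 4), or 2.699 CPM per kilobase beside 2.82 for Cdt1.

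All 6 subunits of the MCM2-7 helicase were detected, and Mcm3 stood above the rest. Mcm3 had 49.7, 47.3, 58.2 and 46.7 CPM in libraries 1 to 4. Mcm6 had 20.4, 19.3, 19.5 and 19.4 CPM and Mcm4 had 15.9, 15.9, 16.4 and 17.0 CPM, a range of 1.06-fold and 1.07-fold. Mcm7 had 16.2, 11.7, 13.4 and 12.8 CPM, Mcm2 had 8.49, 10.8, 12.3 and 10.2 CPM, and Mcm5 had 8.98, 9.98, 9.60 and 8.41 CPM. The 6 proteins form a ring with 1 copy of each, but their transcripts were not level.

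Per kilobase Mcm3 reached 13.4, above Mcm4 at 4.54, Mcm6 at 4.21, Mcm7 at 3.06, Mcm5 at 2.31 and Mcm2 at 1.504. Mcm3 exceeded every other subunit in all 4 libraries under both lengths. Its ratio to Mcm4, the next in order, was 2.95 (2.63 to 3.40), and 3.23 with the longest transcript. Mcm2 has 6956 exonic bases but a longest transcript of 3494, and by the latter its gap to Mcm5 closed (Mcm5 to Mcm2 0.919 in place of 1.55). On that length Mcm4 and Mcm6 (ratio 1.006), Mcm4 and Mcm7 (0.999) and Mcm6 and Mcm7 (0.992) could not be ordered either.

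Genes of helicase activation covered a wide range, 200.4-fold per kilobase between Gins4 and Mcm10, or 127-fold with the longest transcript. Gins4, a subunit of the four-part GINS complex, had 30.2, 18.1, 19.9 and 16.4 CPM in libraries 1 to 4, and the highest library was 1.84-fold above the lowest. Gins3 had 4.12, 5.05, 5.37 and 4.88 CPM, Gins1 had 4.65, 3.15, 3.61 and 2.14 CPM, and Gins2 had 1.84, 1.56, 3.13 and 2.02 CPM. Cdc45, which completes the active helicase, had 2.16, 2.03, 1.19 and 1.63 CPM. Mcm10, a scaffold of the firing fork, had 11, 13, 20 and 13 counts, or 0.602 ± 0.192 CPM (SD, n = 4).

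Per kilobase Gins4 stood at 15.7, against 2.24 for Gins1, 1.79 for Gins3, 0.521 for Gins2, 0.4997 for Cdc45 and 0.0782 for Mcm10. Gins4 was 7.07-fold above Gins1 (6.21 to 8.59), the nearest of the group, in all 4 libraries and by 5.07-fold with the longest transcript. Gins4 is listed with 1349 exonic bases and no exon shared with another gene. Gins2 and Cdc45 could not be ordered, since their ratio ran from 0.655 to 2.25 over the libraries.

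**Figure D1:**
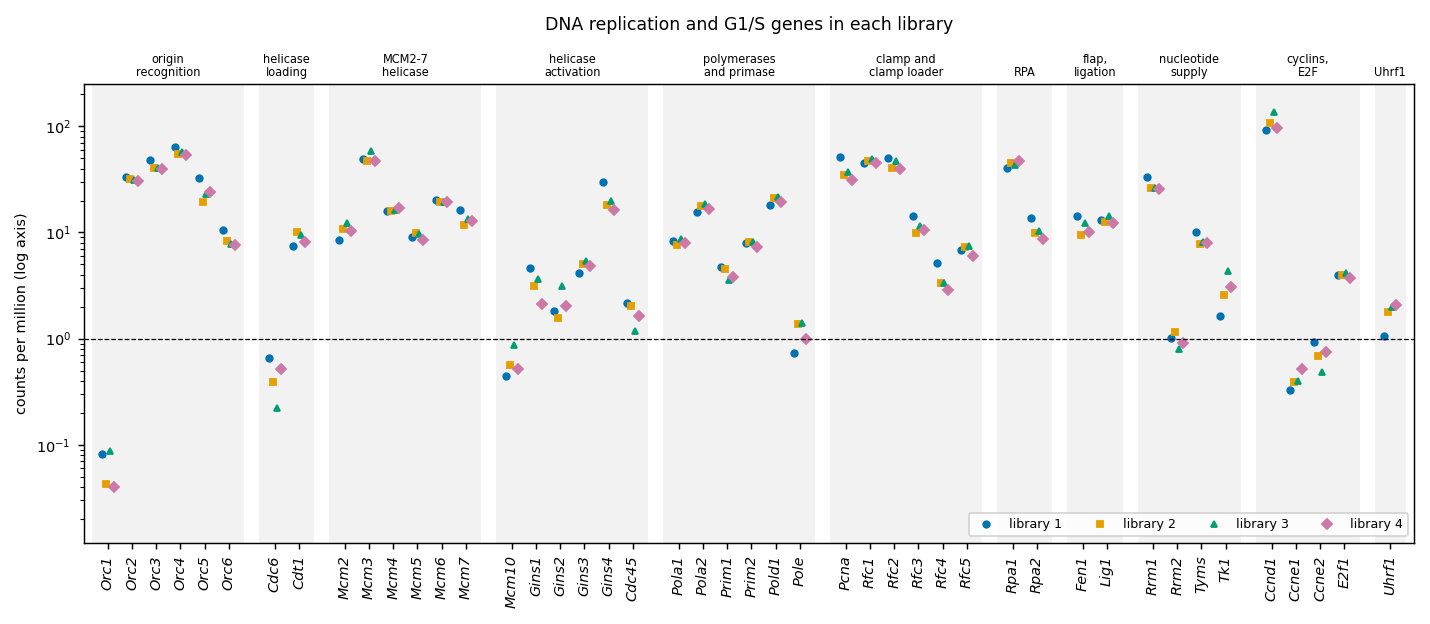
CPM (log axis) of each of the 45 genes in libraries 1 to 4, grouped by role, with a dashed line at 1 CPM. Ccnd1 lies highest, at 92.2 to 135 CPM, Orc1 lowest, and for most genes the 4 symbols nearly coincide.

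Among the polymerases, Pole stood apart by its low level. Pole, the catalytic subunit of the leading-strand polymerase epsilon, had 18, 32, 32 and 25 counts, or 0.734, 1.38, 1.41 and 0.992 CPM. Pold1, the catalytic subunit of polymerase delta, which copies the lagging strand, had 18.0, 21.3, 21.5 and 19.3 CPM. Pold1 was 42.1-fold above Pole per kilobase (35.1 to 56.4). Its own level per kilobase was 4.13, near that of Mcm4.

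Polymerase alpha and primase, which lay down the first stretch of each new strand, were detected in full. The catalytic Pola1 had 8.40, 7.60, 8.67 and 7.98 CPM and the accessory Pola2 had 15.5, 17.9, 18.4 and 16.5 CPM in libraries 1 to 4. The primase subunits had 4.77, 4.58, 3.57 and 3.85 CPM for the catalytic Prim1 and 7.96, 8.12, 8.10 and 7.26 CPM for Prim2. Per kilobase they lay between 0.926 (Pola1) and 2.06 (Pola2). Prim1 and Pola1 did not differ beyond the libraries (1.16-fold, 0.937 to 1.37), and with the longest transcript Pola2 lay above Pold1 in every library.

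Pcna, which encodes the sliding clamp of replication and repair, was among the highest members. It had 51.2, 34.99, 37.2 and 31.1 CPM in libraries 1 to 4, and library 1 lay 1.65-fold above library 4. Per kilobase its level was 16.1 ± 3.66 (SD, n = 4), at percentile 76.9 of the 12512 genes detected in every library. Of its longest transcript, 68.2% of the stretches of 50 bases are found in no other gene. The pseudogene Pcna-ps2 is the only gene listed as sharing at least 10% of them. That pseudogene held 6, 2, 0 and 2 counts. The sources used here do not say how reads that match both were treated, so the level of Pcna is uncertain.

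The clamp loader RFC places PCNA on DNA and has 5 subunits. Rfc1, the large subunit, had 45.2, 47.6, 49.0 and 45.4 CPM, and Rfc2 had 50.4, 40.1, 47.2 and 39.9 CPM in libraries 1 to 4. Rfc3 had 14.4, 9.80, 11.4 and 10.5 CPM, Rfc5 had 6.77, 7.26, 7.40 and 6.03 CPM, and Rfc4 had 5.14, 3.33, 3.35 and 2.90 CPM. Per kilobase the subunits formed a high pair, Rfc1 at 7.77 and Rfc2 at 7.05, and a lower group, Rfc3 at 3.20, Rfc4 at 2.40 and Rfc5 at 1.47. Rfc1 and Rfc2 did not differ beyond the libraries (1.11-fold, 0.939 to 1.24), while Rfc1 exceeded Rfc5 by 5.30-fold (5.09 to 5.83).

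The listed subunits of RPA, the cover of single-stranded DNA in replication and repair, were detected in every library. Per kilobase Rpa1 lay at percentile 57.0 of the genes detected in every library and Rpa2 at percentile 33.6. Rpa1, the large subunit, had 40.8, 45.1, 43.6 and 47.4 CPM and Rpa2 had 13.8, 9.80, 10.3 and 8.73 CPM in libraries 1 to 4. The flap nuclease Fen1 had 14.4, 9.46, 12.2 and 10.0 CPM and DNA ligase I (Lig1), which seals the joined fragments, had 13.1, 12.6, 14.4 and 12.2 CPM. Rpa2 and Fen1 were highest in library 1, Rpa1 in library 4 and Lig1 in library 3. Rpa1 exceeded Rpa2 by 2.25-fold per kilobase (1.59 to 2.91).

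Genes of deoxynucleotide supply were split between the 2 subunits of ribonucleotide reductase. Rrm1, the large subunit, had 33.2, 26.1, 26.5 and 25.8 CPM in libraries 1 to 4. Rrm2, the small subunit of S phase, had 25, 27, 18 and 23 counts, or 1.02, 1.17, 0.792 and 0.913 CPM. Per kilobase Rrm1 lay 7.25-fold above Rrm2 (5.64 to 8.40), and 11.5-fold with the longest transcript. Rrm2b, the small subunit that serves outside S phase, was at 2.68 CPM per kilobase, beside 2.54 for Rrm1 and 0.351 for Rrm2.

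Thymidylate synthase (Tyms), which makes dTMP, had 10.2, 7.86, 8.10 and 7.94 CPM. Thymidine kinase 1 (Tk1), its salvage counterpart in cycling cells, had 1.63, 2.59, 4.31 and 3.10 CPM in libraries 1 to 4. Tk1 was lowest in library 1 and highest in library 3, a 2.64-fold range that was the widest among the 38 detected members. It rested on 40, 60, 98 and 78 counts.

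Cyclin D1 (Ccnd1), the partner of CDK4 and CDK6 that answers growth signals, had the highest level of the list. It had 92.2, 108, 135 and 95.8 CPM in libraries 1 to 4. Per kilobase it stood at 22.9 ± 4.16 (SD, n = 4), percentile 84.3 of the genes detected in every library, and 1100 of its exonic bases are shared with LTO1 on the opposite strand. The E-type cyclins, which act later at the entry to S phase, lay near the bottom. Ccne1 had 8, 9, 9 and 13 counts, or 0.407 ± 0.0792 CPM, and Ccne2 had 23, 16, 11 and 19 counts, or 0.717 ± 0.187 CPM (SD, n = 4).

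Per kilobase Ccnd1 exceeded Ccne1 by 150.2-fold (105 to 193) and Ccne2 by 113-fold (72.9 to 208). The factor E2f1, itself an E2F target, had 4.00, 3.97, 4.18 and 3.73 CPM, within 1.12-fold. Uhrf1, which guides the methyltransferase Dnmt1 to freshly copied DNA, had 1.06, 1.77, 1.98 and 2.06 CPM and was lowest in library 1. Its partner Dnmt1 was at 6.47 CPM per kilobase, beside 0.404 for Uhrf1.

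**Figure D2:**
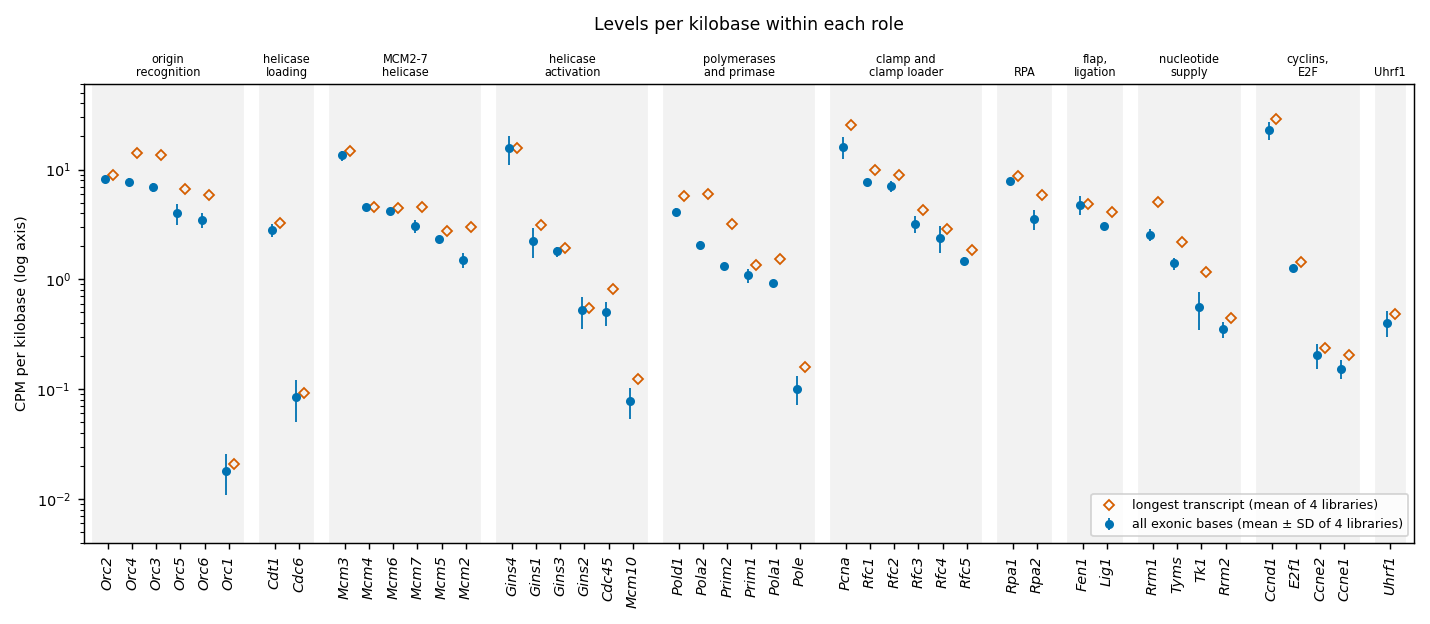
CPM per kilobase (log axis) of each gene within its role, with all exonic bases as the length (filled, mean ± SD of 4 libraries) and with the longest transcript (open, mean). Within most roles 1 or 2 genes lie far above or below the rest, such as Mcm3 at 13.4 and Pole at 0.101.

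Across the 38 detected members the median level was 3.06 CPM per kilobase, against 6.27 over all 12512 detected genes. Only 10 of the 38 lay above that median of all genes, and 3 lay above their 75th percentile: Ccnd1, Pcna and Gins4. Another 16 lay below the 25th percentile. The 7 genes that missed 1 CPM in at least 1 library were Orc1, Cdc6, Mcm10, Pole, Rrm2, Ccne1 and Ccne2. They take part in initiation, in leading-strand synthesis, in nucleotide supply for S phase and in S phase entry.

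Of 90 pairs of genes within a role, 82 were ordered the same way in all 4 libraries. With the longest transcript 76 of the 82 kept that order in every library and 2 were reversed in every library (Orc2 and Orc3, Pold1 and Pola2). Differences within a role were therefore mostly larger than the spread between libraries, although the levels rest on annotated length. The share for pairs of genes in general was not computed. Pairs with Orc1 rest on 1 or 2 counts of that gene in each library.

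Genes of the same pathway outside the list gave a similar picture. Of 35 other replication factors 30 were detected, led per kilobase by Ctc1, of the telomeric CST complex, at 37.8, Pold4, a small subunit of polymerase delta, at 26.3, and the histone chaperone Ssrp1 at 25.9. The lowest were Dscc1 at 0.113 and Ticrr, needed for origin firing, at 0.0557, both under 1 CPM. The kinase that fires licensed origins had 15.3 ± 1.45 CPM for its activator Dbf4 and 3.96 ± 0.473 CPM for Cdc7 (SD, n = 4). Of the 33 that were tested, 0 passed the test of spread described below, which 3.28% of all tested genes passed.

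All 9 other genes of nucleotide supply and maintenance methylation were detected. Samhd1, which breaks down deoxynucleotides and is known to lower their pool in resting myeloid cells, led at 21.5 CPM per kilobase, with 144.8, 189.8, 248 and 206 CPM in libraries 1 to 4. Dtymk was at 8.61 and Dck, a salvage kinase, at 8.29 CPM per kilobase, while the helicase Hells was lowest at 0.439. All 9 were tested for spread and 0 passed, against the same 3.28%.

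Of 28 other kinases, cyclins and inhibitors of G1, 25 were detected. The CDK inhibitor Cdkn1b led at 25.5 CPM per kilobase, followed by the repressive E2F4 factor (E2f4) at 22.6 and Cdk4 at 19.4, beside 22.9 for Ccnd1. The late E2F repressors E2f8 and E2f7 were lowest, at 0.219 and 0.0577. Ccnd2, the sister cyclin of Ccnd1, had 32.6, 42.5, 10.2 and 48.1 CPM in libraries 1 to 4 and was lowest in library 3. It was the 1 gene of 27 tested past the test of spread (edgeR goodness of fit, adjusted p = 0.00182), which 3.28% of all tested genes passed. Without library 3 its adjusted p was 1.00. The quasi-likelihood test gave 0.889, but it called 0 of the 14112 tested genes, so it could not decide on Ccnd2. In library 3, where Ccnd1 was highest, 9 of 10 endothelial, 9 of 9 pericyte and smooth muscle and 9 of 9 choroid plexus and ependyma markers were also lowest, and their part in the level of Ccnd2 was not tested.

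Scoring lists for cycling cells were set beside the members. Of 43 genes commonly used to score S phase, 18 are members, and 15 of those 18 were detected, as were 15 of the other 25. Ubr7 at 9.42 and Pold3 at 9.20 CPM per kilobase followed Pcna, and Exo1 and Dtl were lowest at 0.0598 and 0.0409. The 18 members in that list had a median of 1.45 CPM per kilobase, and the 27 members outside it had 3.06.

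Of 54 genes used to score G2 and mitosis, 36 were detected (66.7%). The list was led per kilobase by Jpt1 at 33.5, Anp32e at 32.9 and the insulator protein Ctcf at 21.6, which dividing and resting cells alike express. Cdk1 had 7.79 ± 0.966, Top2a 6.83 ± 0.959 and Mki67 5.72 ± 1.45 CPM (SD, n = 4), and the lowest of the list were Ttk at 0.105 and Cdc25c at 0.0299 CPM per kilobase. Ccnb1, the mitotic cyclin, is not in this list and had 3, 5, 6 and 6 counts, or 0.0498 CPM per kilobase. The median of log2(CPM + 0.5) was 1.53 ± 0.19 for this list, 3.01 ± 0.15 for the S phase list and 3.32 ± 0.11 for the 45 members, against 4.48 ± 0.08 over all 14112 tested genes (SD, n = 4).

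The spread between libraries was tested for all genes at once. The residual deviance of a single-mean fit was compared with a chi-square on 3 degrees of freedom in edgeR (negative binomial goodness of fit with the trended dispersion). Of 14112 genes, 463 had a Benjamini-Hochberg adjusted p under 0.05, which is 3.28%. Among the 42 members tested the count was 0. At an unadjusted p under 0.05 it was also 0, against 9.57% of all genes, and 38 of the 42 had an unadjusted p over 0.5, against 69.9%. The quasi-likelihood test gave 0 members and 0 genes of the whole table at an adjusted p under 0.05, and 0 members against 4.66% of all genes unadjusted. Dispersion outliers of DESeq2 were 0 members and 4 genes (0.0283%), so the number of genes called rests on the tool. It also rests on the libraries: without library 3 it was 106, without library 4 it was 258 and without library 2 it was 276, with 0 members each time. The fit took its dispersion from these same 4 libraries, with a biological coefficient of variation of 26.6% over all genes. The test therefore had little room to call a spread of that size or less. A p that misses the threshold does not show that the levels were equal.

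The smallest unadjusted p among members was 0.34, for Gins4. Over the 42 members the median ratio of the highest to the lowest library was 1.35-fold, against 1.43-fold over all tested genes. Of these 42, 3 had a ratio over 2, Tk1 at 2.64, Gins1 at 2.17 and Gins2 at 2.01, which is 7.14% against 22.04% of all tested genes. The median coefficient of variation was 13.8% against 16.02%.

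Counting error accounts for part of this spread. The coefficient of variation due to counting alone is 1 over the square root of the mean count. The labels name no molecular identifiers, so copies of a molecule may be counted apart, and this value, like the floor of 3 counts, covers counting error and nothing else. Of the 45 members, 9 varied no more than that, among them Mcm6 (2.61% observed, 4.62% from counting), Mcm4 (3.23% and 5.07%), Orc2 (3.01% and 3.63%) and E2f1 (4.67% and 10.3%). The remaining 36 varied more. Ccnd1 did so most, at 18.2% against 1.98%, followed by Pcna at 22.7% against 3.29% and Gins4 at 29.3% against 4.45%. The same counts over all tested genes were not computed, so 9 and 36 do not set the members apart.

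**Figure D3:**
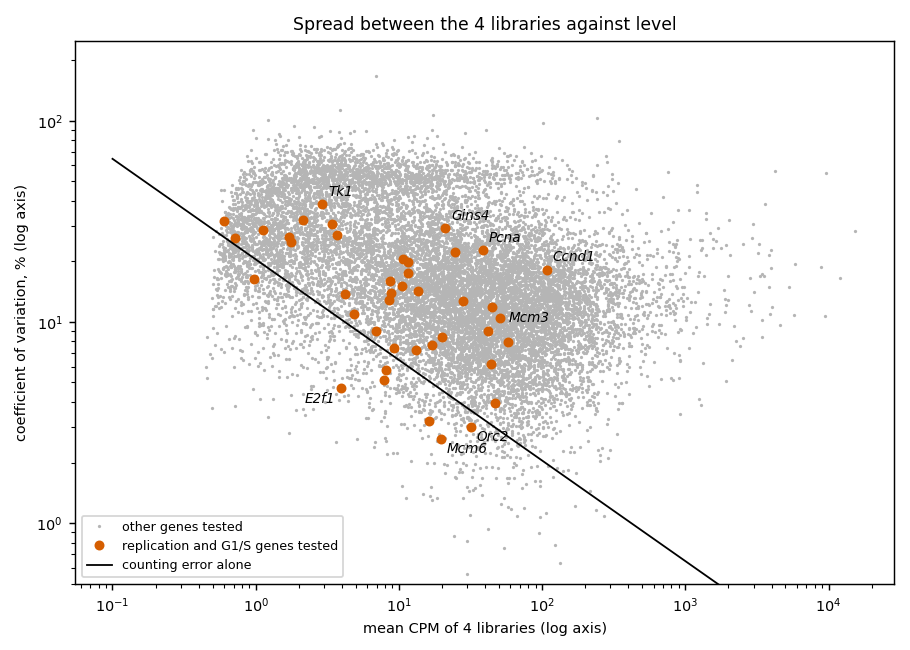
Coefficient of variation over the 4 libraries (%, log axis) against mean CPM (log axis) for the 14112 tested genes, with the 42 tested members in colour and the line of counting error alone. The members lie inside the cloud of other genes, with Mcm6, Orc2 and E2f1 under the line and Ccnd1, Pcna and Gins4 well above it.

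The libraries that differed in other cells did not differ alike in the replication genes. The median member in library 3 was 1.04-fold the mean of the other libraries, while the median endothelial marker was 0.223-fold, the median pericyte marker 0.192-fold and the median choroid plexus marker 0.204-fold. Summed over the 45 members the level was 815, 745, 814 and 718 CPM in libraries 1 to 4. The summed markers ranged more widely, by 4.33-fold for endothelial, 4.58-fold for neutrophil, 6.80-fold for pericyte and smooth muscle and 11.2-fold for erythroid markers. For microglia markers the range was 1.24-fold. Scaling by TMM keeps the typical gene close to level between libraries, and the ratio over all genes was not computed. Whether 1.04-fold or 0.920-fold sets the members apart, and which cells their transcripts came from, was therefore not tested.

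Of the 45 members, 21 were highest in library 1 and 16 in library 3. Among the 42 tested, 47.6% were highest in library 1 against 34.2% of all tested genes, and 35.7% in library 3 against 28.3%. The lowest value fell in library 4 for 18 members (40.5% of those tested, against 20.3% of all tested genes) and in library 3 for 5 (9.52% against 29.2%). Such counts depend on the scaling: with library totals 22 were highest in library 1 and 10 in library 3, and with each library scaled to the median microglia marker 0 were highest in library 1 and 31 in library 4. The lowest value moved likewise: with library totals 11 members were lowest in library 4 and 12 in library 3, and with the microglia scaling 40 were lowest in library 1, 3 in library 3 and 1 in library 4. The median microglia marker was Fcrls in libraries 1 and 2 and Siglech in libraries 3 and 4, so this scaling rests on single genes. Fcrls ranged 2.05-fold between libraries, against 1.24-fold for the summed microglia markers. The microglia scaling shifted all genes by -0.62, 0.18, 0.06 and 0.38 on the log2 scale in libraries 1 to 4. No library therefore held most of the highest values under every scaling.

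Levels in a library relative to the others went with transcript length in some libraries. Across 14105 tested genes with a known length, the ratio of library 1 to the other libraries fell with the length of the longest transcript, with Spearman's rho of -0.42. Over the 42 tested members rho was -0.43. In libraries 2, 3 and 4 it was 0.38, 0.02 and 0.33 over all these genes and 0.07, 0.31 and 0.35 over the members. Over the 38 detected members it was -0.37, 0.05, 0.19 and 0.47 in libraries 1 to 4. Whether the members differ from all genes in these values was not tested. These are correlations across genes of the same libraries, and genes are not independent replicates. Detected members that were highest in library 1 had a median longest transcript of 2962 bases (n = 19), and the other 19 had 3494. Gins4, Gins1 and Rfc4, with 1349, 1087 and 1279 bases, were at 1.67-fold, 1.57-fold and 1.61-fold the mean of the other libraries in library 1. Pole and Uhrf1, with 7163 and 3586 bases, were at 0.582-fold and 0.547-fold. Tk1 had the lowest ratio of all, 0.489-fold, although its 2490 bases were fewer than either median. Some long members were high in library 1. Cdc6, on 16 counts, had the highest ratio of all, 1.74-fold with 4802 bases. Orc5 was at 1.46-fold with 3742 bases and Rrm1 at 1.27-fold with 5475 bases.

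Markers of border-associated macrophages and erythroid cells were highest in library 1 as well. All 7 genes of the first list and all 6 of the second peaked there, and the median ratio of library 1 to the others was 2.43-fold and 3.11-fold. For the 45 members it was 1.04-fold. The part of transcript length and of these cells in the members that were highest in library 1 was not tested.

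**Figure D4:**
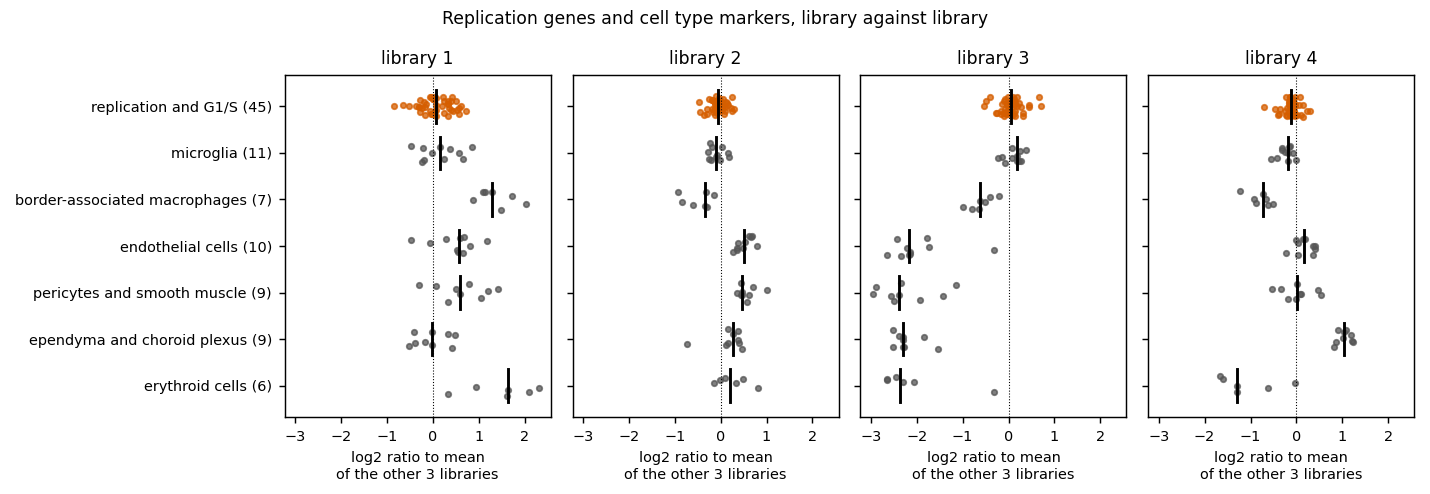
Log2 ratio of each library to the mean of the other 3, with 0.5 CPM added to both, for the 45 members and the markers of 6 cell types. Points are genes and bars are medians, and the members stay near 0 in library 3 where endothelial, pericyte, choroid plexus and erythroid markers are low.

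Some levels are limited by shared sequence. Of the 45 members, 6 had under 80% of their longest transcript unique to the gene. They were Fen1 (18.8%), Gins2 (29.7%), Mcm7 (65.8%), Pcna (68.2%), Ccnd1 (72.8%) and Orc2 (78.4%). For Fen1 and Gins2 the shared bases lie on the opposite strand, 2039 of them within Gm10143 and Tmem258 and 2758 within Gse1. Tmem258 had 30.5 ± 4.19 CPM (SD, n = 4) beside 11.5 ± 2.28 for Fen1, and Gm10143 held 0, 0, 1 and 2 counts in libraries 1 to 4. Gse1 had 46.8 ± 9.10 CPM (SD, n = 4) beside 2.14 ± 0.688 for Gins2. The library kit marks strand, but the sources used here do not give the strand setting of the counting, so the levels of these genes are uncertain. Mcm7 shares sequence with Gm5487, which held 4, 1, 0 and 1 counts. In all, 16 members share exonic bases with a gene on the opposite strand.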

How the data were processed

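Raw counts of each Ensembl gene in the 4 libraries were deposited. The submitters' processing notes name GRCm38, featureCounts 1.6.5, STAR 2.7.2b and, for base calls, bcl2fastq 2.20.0.422. The sources used here do not give the annotation release, the strand setting or how multi-mapping reads were counted. Per the labels' protocols, 300 ng of total RNA entered a strand-marking poly(A) kit.

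GENCODE M21 gave symbols, coordinates and lengths for 55230 of 55471 identifiers, and the rest stayed in the totals. CPM used library sizes scaled by TMM in edgeR 4.0.16 (R 4.3.3). Sequence shared with other genes was counted over stretches of 50 bases of transcripts. The filter was filterByExpr, the threshold an adjusted p of 0.05, and the design is a single group, so no coefficient was tested. The quasi-likelihood variance test and the dispersion outliers of DESeq2 1.42.0 were alternatives. For 1 list gene with several identifiers, the one with most counts was used.

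The members, lists and tests were chosen with earlier results of these data known. Named genes were all members and, per pathway list, the 3 highest and 2 lowest per kilobase, those past the spread threshold, and Gmnn, Dbf4, Cdc7, Mki67, Top2a, Ccnb1 and Cdk1. Rrm2b, Dnmt1, the neighbours and copies of members were named after their values were seen. Some genes that this rule covers are not reported here.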

Additional observations from a re-analysis of the deposited data

Results flagged for a closer look

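In all, 4 members had a library far from the other 3 by Dixon's ratio, the gap to the nearest value over the whole range, which flags about 1 in 20 groups by chance. In each it was library 1 that was high. The ratio was 0.861 for Mcm6 (20.4, 19.3, 19.5 and 19.4 CPM in libraries 1 to 4), 0.861 for Orc3 (47.9, 40.6, 40.7 and 39.6 CPM), 0.916 for Rrm1 (33.2, 26.1, 26.5 and 25.8 CPM) and 0.896 for Tyms (10.2, 7.86, 8.10 and 7.94 CPM), above Dixon's limit for 4 values in each case. By that rate about 2 of 45 members are due, but genes of the same libraries are not independent. Of all tested genes 34.2% were highest in library 1, and the share of them that the rule flags was not computed. Whether 4 members is more than usual was therefore not tested. For Mcm6 the whole range was 1.06-fold, and for the other 3 it was 1.21-fold, 1.29-fold and 1.29-fold. Mcm6 varied by 2.61%, under the 4.62% from counting alone, so its flag marks no difference beyond counting error.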

How the results depend on the processing

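The count of 0 members past the spread threshold held under library totals, DESeq2 size factors, no filter and each left-out library. The quasi-likelihood test and DESeq2 dispersion outliers also gave 0 members. They called 0 and 4 of all 14112 tested genes, so they could hardly have called a member and are no check on this count. Over all genes the count of 463 was 467, 454 and 419 under the scalings and without the filter, 106 to 425 with a library left out (106, 258 and 276 without library 3, 4 and 2), 0 by quasi-likelihood and 4 by DESeq2. Of the members, 38 were detected, 40 at 0.5 CPM and 34 at 2 CPM. Their median level was 3.32 (log2) and 3.28 to 3.36 with a library left out. All 45 mean levels stayed within 1 SD under both scalings. The number of members highest in libraries 1 to 4 was 21, 4, 16 and 4. It was 22, 9, 10 and 4 with library totals and 0, 8, 6 and 31 scaled to the median microglia marker. The number lowest was 13, 9, 5 and 18, then 13, 9, 12 and 11, and then 40, 1, 3 and 1. The cause of these changes was not tested. Pairs ordered in all libraries were 82, and 81 with the longest transcript. No paired analysis was possible because there is a single group. Depth limits Orc1, Cdc6, Ccne1 and Mcm10 most.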
